A study of Mus musculus with 12 samples.

Results

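Carfilzomib, given alone for 8 h at 200 nM, was compared with its vehicle in NIH/3T3 cells, an immortalised fibroblast line from wild-type mouse embryos. The comparison used 6 of the 12 RNA-seq libraries of the series: 3 of cells given 200 nM carfilzomib (CFZ) and 3 of cells given dimethyl sulfoxide (DMSO), chosen by the treatment in the sample titles. The other 6 libraries, with 5 µM doxorubicin alone or together with carfilzomib, entered only an alternative fit. All 6 samples carried the same background, with no transgene or knockout named, and grew in DMEM with 10% serum. Polyadenylated RNA was sequenced and counted per gene, so the values describe RNA levels in a mixed culture and not protein amounts. The design asks which genes a proteasome inhibitor moves without a second drug.

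The proteasome is the cell's main machine for destroying proteins tagged with ubiquitin. Its 20S core holds the proteolytic sites inside rings of alpha and beta subunits, and its 19S caps recognise, unfold and feed in the tagged proteins. Carfilzomib binds the core irreversibly, chiefly at the site carried by the beta subunit Psmb5. Cells with a blocked proteasome are known to make more of it through the transcription factor NRF1 (Nfe2l1), and undegraded proteins are known to engage the heat shock factor HSF1, the oxidative stress factor NRF2 (Nfe2l2), p53 and the unfolded protein response in the endoplasmic reticulum (ER).

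The libraries held 30460507 to 40134000 counts each. On the first principal component, with 77.5% of the variance, the DMSO libraries lay between −44.2 and −42.6 and the CFZ libraries between 39.7 and 49.0. On the second, with 10.4%, DMSO 1 (20.4) and CFZ 1 (24.6) lay apart from the other 4 libraries (−14.2 to −9.36), so replicate 1 of both groups deviated in the same direction. Fibroblast genes were abundant, with Col1a1, Col1a2 and Vim between 0.2 and 1% of the counts. Of 11 fibroblast markers 9 could be tested, while Fap and Lum were too low. The summed share of the 11 was 2.13 to 2.64% of counts with DMSO and 1.20 to 1.70% with CFZ. Markers of other lineages were near background: all 8 of skeletal muscle and all 7 of adipocytes were too low to test, and the lists of endothelium, macrophages and neurons took at most 0.00288% of the counts. Krt14, a keratin of basal epithelium, was an exception and rose, at 63, 78.8 and 93.9 CPM in the DMSO libraries and 121, 165 and 201 CPM in the CFZ libraries, while the only other epithelial marker that could be tested, the cadherin gene Cdh1, fell (3.1 ± 0.382 to 0.559 ± 0.249 CPM, −2.49 ± 0.28). The other 7 of the 9, Epcam among them, were too low to test. The 9 took 0.00677 to 0.0103% of counts with DMSO and 0.0117 to 0.0198% with CFZ, and their part in the results was not tested. The labels do not state whether replicates came from separate cultures. The p-values therefore rest on the spread between these libraries, and that spread may be technical.

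Of 13865 genes tested, 3918 (28.3%) were higher and 4007 (28.9%) lower with CFZ, at a Benjamini-Hochberg adjusted p under 0.05 in edgeR's quasi-likelihood test. "Rose" and "fell" below refer to these calls, and the shares of 28.3% and 28.9% are the background for each list of genes in this fit. At least 2-fold changes were fewer, 923 higher (6.66%) and 1059 lower (7.64%). The median log2 fold change over all genes was −0.01. In a fit of all 12 libraries of the series, which was filtered and scaled anew, 2402 of 16648 genes tested were higher and 2395 lower. These smaller shares are the background for list counts from that fit. Where a whole list is counted below and its count moved by more than 1.5 times in this 12-library fit, that count stands beside it, whereas counts of subgroups within a list are from the 6 libraries only. The values of the 2 groups did not overlap for 63.8% of the genes tested (31.5% higher and 32.3% lower with CFZ). Values are CPM, counts scaled to a common library size with TMM factors. They are given as mean ± SD of 3 libraries or for replicates 1, 2 and 3 in that order. On a log2 fold change, ± is an approximate SE.

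**Figure D1:**
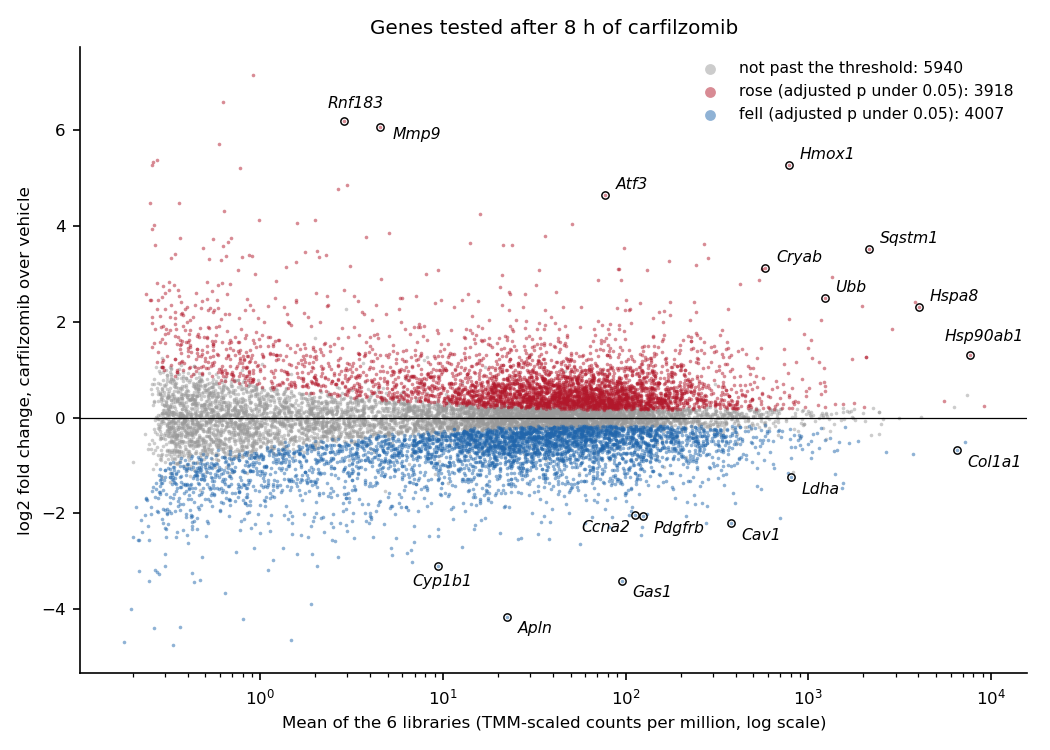
Log2 fold change of carfilzomib over vehicle (vertical axis) against the mean TMM-scaled CPM of the 6 libraries (horizontal log axis), 1 point for each of the 13865 genes tested, coloured by call. Genes rose and fell in like numbers, 3918 and 4007, while stress genes such as Hmox1, Sqstm1, Hspa8 and Hsp90ab1 lay far above 0 at high expression.

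The strongest single rise at high expression was that of the heme oxygenase 1 gene Hmox1, whose product breaks down haem (GRCm39 chromosome 8, 75820249 to 75827217, plus strand; ENSMUSG00000005413). It measured 37.9, 38 and 43.5 CPM in the DMSO libraries and 1456, 1498 and 1609 CPM in the CFZ libraries, a 38.2-fold difference with no overlap (log2 fold change 5.26 with an SE of 0.09, adjusted p = 3.17e-10). Rnf183 (GRCm39 chromosome 4, 62345777 to 62353489, minus strand), a ubiquitin ligase gene, and Mmp9 (GRCm39 chromosome 2, 164782700 to 164797770, plus strand), the gelatinase gene, had the largest fold changes among called genes with a standard gene name, no overlap between groups and 5 CPM or more in 1 group. Both were almost silent with vehicle. Rnf183 had 2, 4 and 2 raw counts with DMSO and 142, 238 and 189 with CFZ, a ratio of 76.5 with an exact 95% counting interval of 38.6 to 178. Mmp9 had 2, 8 and 4 raw counts against 409, 213 and 247, a ratio of 66.8 (39.6 to 123). These intervals cover counting error only.

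The other genes among the 15 highest, a set chosen from genes without overlap between groups, belong to several processes. Atf3, a stress-induced transcription factor, rose 25-fold and Osgin1, an oxidative stress gene, 16.5-fold. Casp4 (an inflammatory caspase) rose from 0.661 ± 0.198 to 9.54 ± 1.86 CPM, Fas (a death receptor and p53 target) from 3.65 ± 0.994 to 43.8 ± 12.3 CPM, and Ier3 (an early response gene) from 15.5 ± 7.53 to 181 ± 29 CPM. Zfand2a, which encodes an arsenite- and heat-induced partner of the proteasome, rose from 40.7 ± 3.79 to 499 ± 74.2 CPM. Dnmt3l, Calr3 and Htatip2, genes with high expression in germ cells or other tissues, rose with log2 fold changes of 4.85, 4.24 and 4.77. Napb, Aox1 and the proliferin gene Prl2c2 completed the group (3.78, 3.64 and 3.59). Prl2c2 has near-identical copies, so its reads may be shared with them.

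The 15 largest falls, also chosen from genes without overlap, came from genes of several kinds. Apln, which encodes the secreted peptide apelin (GRCm39 chromosome X, 47114023 to 47123730, minus strand), measured 44.5, 45.6 and 37.9 CPM in the DMSO libraries and 2.78, 2.63 and 1.74 CPM in the CFZ libraries, a 17.8-fold fall without overlap (log2 fold change −4.15 with an SE of 0.15, adjusted p = 2.52e-08). Gas1, a co-receptor for Hedgehog ligands, fell from 174 ± 51.8 to 16.5 ± 8.57 CPM, and the cytochrome P450 gene Cyp1b1 from 16.7 ± 6.67 to 1.99 ± 1.35 CPM. The BMP antagonist Smad6 (−2.82), the chemokine Cxcl12 (−2.87), the EGR corepressor Nab2 (−2.65), the homeobox gene Hoxa2 (−2.60), the SOX factor Sox12 (−2.54), the histone variant H2ax (−2.53) and the clock output factor Dbp (−2.52) were also among the 15 lowest on the log2 scale. Siglecg, Aff3, Rtl9, Tmem119 and Spon2 made up the rest, with log2 fold changes of −3.01 to −2.51. Among the 10 genes with the smallest p was Cav1, the main coat protein of caveolae, at 618, 623 and 626 CPM in the DMSO libraries and 138, 137 and 128 CPM in the CFZ libraries (log2 fold change −2.21 with an SE of 0.07, adjusted p = 8.1e-09). The 3 values of each group lay close together and the groups far apart.

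**Figure D2:**
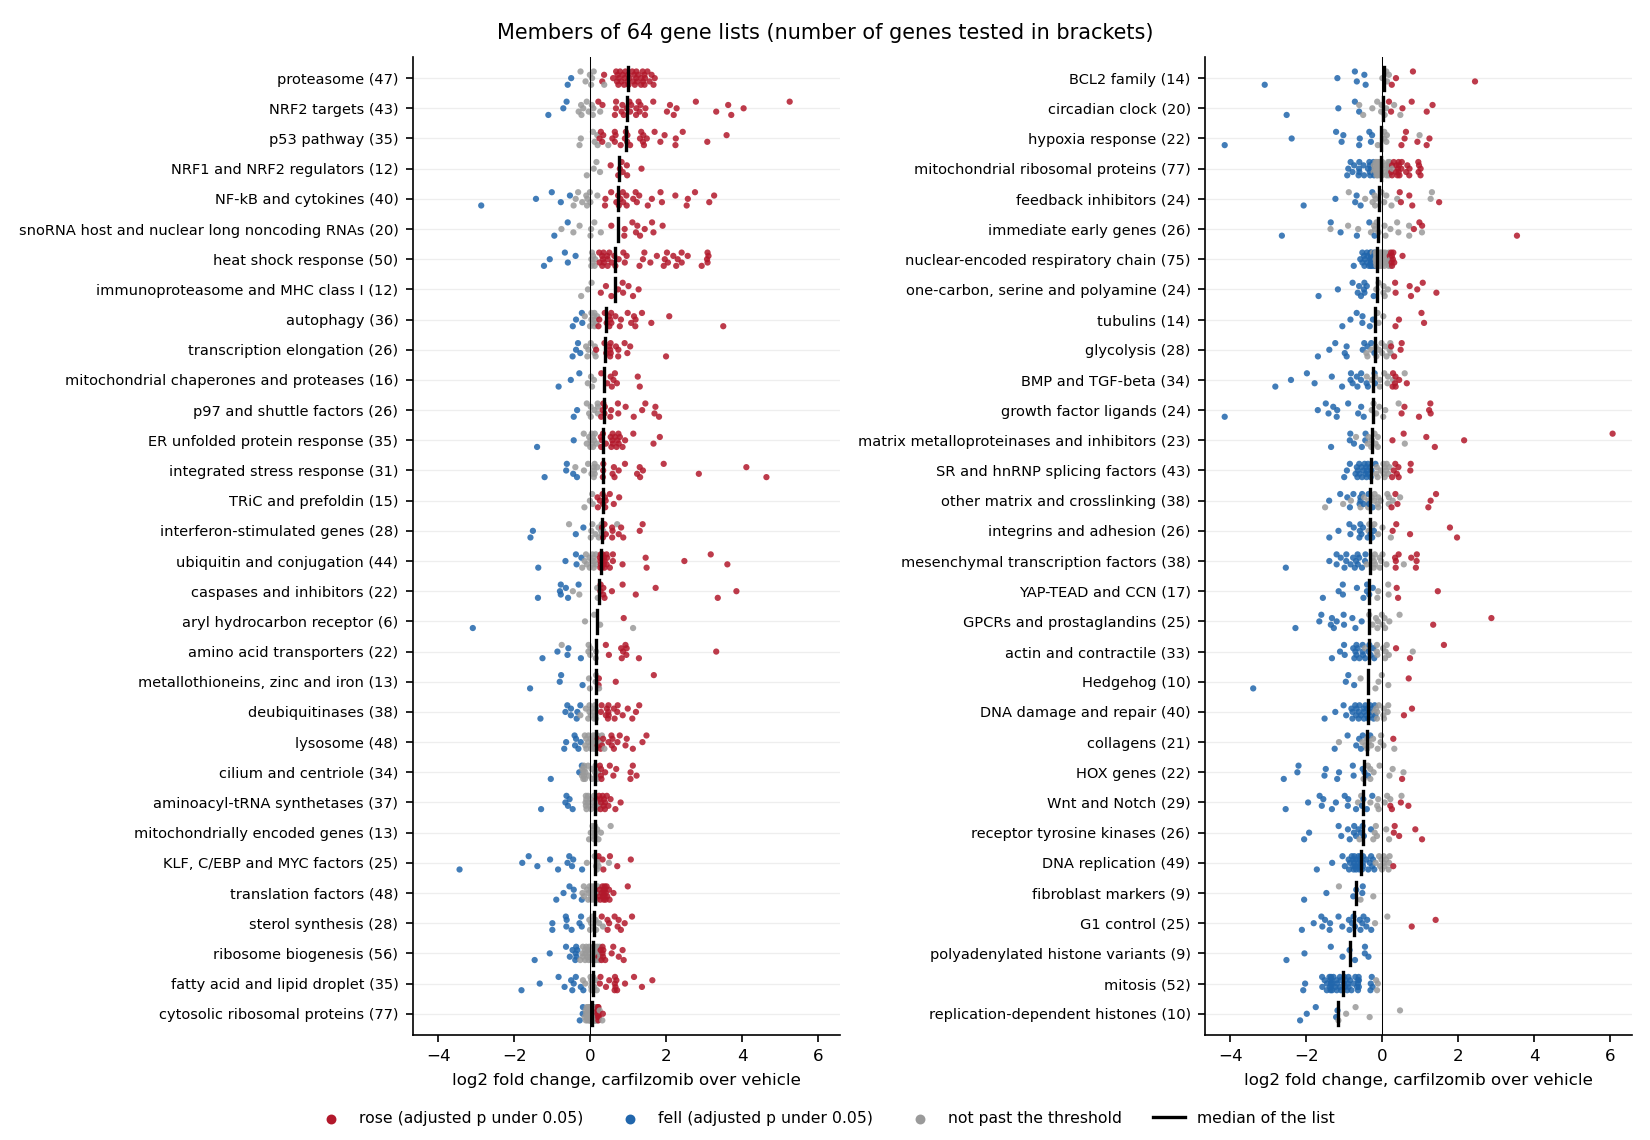
Log2 fold change of carfilzomib over vehicle (horizontal axes) for the tested members of the gene lists, 1 row per list and 1 point per gene, coloured by call, with the median as a black bar and lists ordered by it. The median was 0.99 for the proteasome and −1.05 for mitosis, against −0.01 for all genes.

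Proteasome genes rose together. Of 47 tested, 38 rose and 2 fell (background 28.3% higher and 28.9% lower), with a median log2 fold change of 0.99, and 22 of the rises were at least 2-fold. All 7 alpha ring genes, all 7 beta ring genes, all 6 ATPases of the 19S base and 15 of the 17 other 19S genes rose. The medians of these 4 groups were 0.99, 1.18, 1.33 and 0.93. Together the list took 0.589 to 0.631% of the counts with DMSO and 1.22 to 1.29% with CFZ.

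The 3 catalytic subunits did not move by the same amount. Psmb5, the chymotrypsin-like subunit that carfilzomib binds, measured 40, 43.6 and 40.9 CPM in the DMSO libraries and 67.8, 69.9 and 67.7 CPM in the CFZ libraries (log2 fold change 0.72 with an SE of 0.07, adjusted p = 7.35e-06). Psmb6, the caspase-like subunit, measured 129, 141 and 142 CPM in the DMSO libraries and 305, 311 and 317 CPM in the CFZ libraries (log2 fold change 1.18 with an SE of 0.07, adjusted p = 2.65e-07), and Psmb7, the trypsin-like subunit, 136, 141 and 146 CPM in the DMSO libraries and 273, 274 and 296 CPM in the CFZ libraries (log2 fold change 1.0 with an SE of 0.07, adjusted p = 7.99e-07). None overlapped between the groups, and Psmb5 had the smallest fold change of the 7 beta ring genes. The largest rises were of Psmb3 (1.70 ± 0.06), a structural beta subunit, Psmc4 (1.67 ± 0.06) and Psmc6 (1.57 ± 0.08), ATPases that unfold substrates, and Psmd4 (1.62 ± 0.07), a receptor for ubiquitin chains.

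The exceptions were grouped outside the core. The 2 19S genes that were not called were Sem1 (0.03 ± 0.08), the smallest lid component, and Uchl5 (−0.01 ± 0.12), a deubiquitinase that docks on the cap. Among activators and inhibitors, Psme4 (1.04 ± 0.08), which encodes the nuclear activator PA200, and the inhibitor Psmf1 (0.83 ± 0.07) rose, and the subunits of the 11S activator Psme1, Psme2 and Psme3 were not called (−0.12 to 0.10). Of the assembly chaperones, Pomp rose (0.37 ± 0.07), Psmg1 (−0.59 ± 0.08) and Psmg2 (−0.50 ± 0.08) fell, and Psmg3 (0.37 ± 0.16) and Psmg4 (−0.25 ± 0.12) were not called. In the fit with a replicate block, which removes what replicates of the same number share, both were (adjusted p = 0.00669 and 0.0379).

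**Figure D3:**
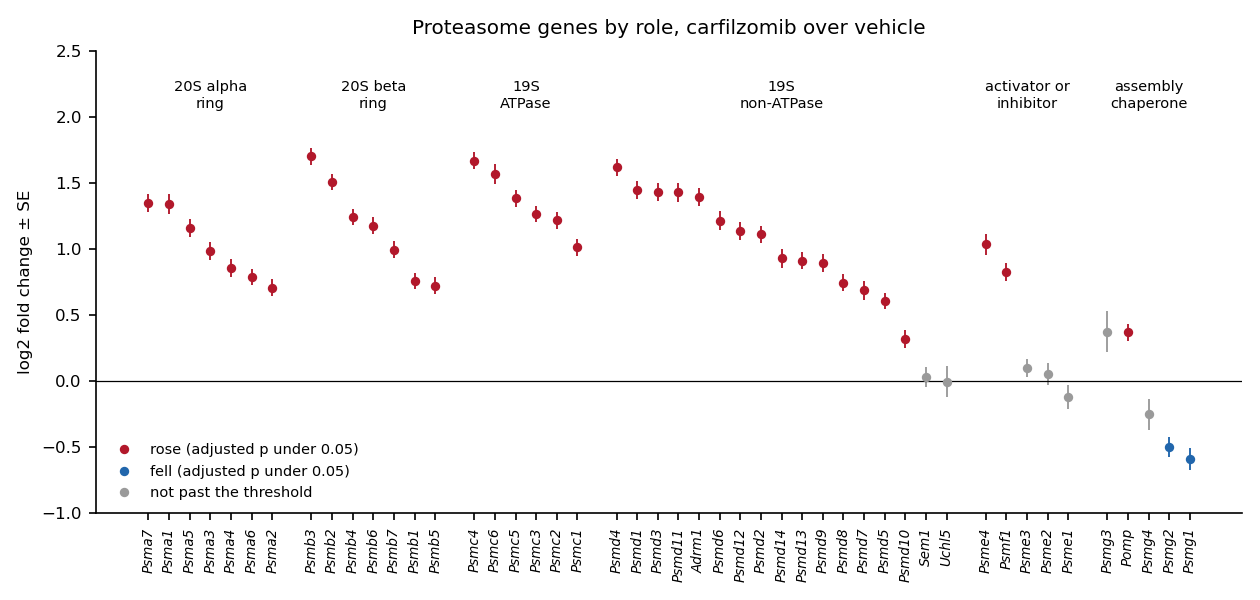
Log2 fold change with its SE (vertical axis) for the 47 proteasome genes tested, grouped by role along the horizontal axis and coloured by call. The 20S and 19S genes that rose lie between Psmd10 at 0.32 and Psmb3 at 1.70, Sem1 and Uchl5 lie near 0, and the assembly chaperones Psmg1 and Psmg2 lie below 0.

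Promoter windows from RefSeq (build GRCm38.p6, 250 bases before to 50 after each annotated start) were available for 9750 of the genes tested, and motif letters were searched in them on both strands. NRF1 and NRF2 bind antioxidant response elements, for which TGACNNNGC was searched. It was found in 8 of 31 core and cap genes with a window (25.8%), against 17% of all tested genes with a window and 12.4% of the 32851 windows of the table, so the share is not far above that of other genes. Stretches of Psmc6 (chr14:45329574-45329673, plus strand, 250 to 151 bases upstream) and Adrm1 (chr2:180171380-180171479, plus strand, 208 to 109 bases upstream) are shown as 2 genes of the caps that hold it and rose by more than 2-fold. The match is in capitals and is a description of letters, not a mapped binding site.
Psmc6: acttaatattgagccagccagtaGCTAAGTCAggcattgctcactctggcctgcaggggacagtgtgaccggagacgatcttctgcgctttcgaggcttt
Adrm1: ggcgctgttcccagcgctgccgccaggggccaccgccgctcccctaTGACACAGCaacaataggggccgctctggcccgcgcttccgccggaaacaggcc

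The regulators of this response were themselves higher. Of 12 NRF1 and NRF2 regulators 8 rose and none fell. Nfe2l1 measured 378, 355 and 372 CPM in the DMSO libraries and 759, 613 and 634 CPM in the CFZ libraries (log2 fold change 0.86 with an SE of 0.09, adjusted p = 1.35e-05) and Nfe2l2 113, 89.6 and 79.1 CPM in the DMSO libraries and 229, 164 and 162 CPM in the CFZ libraries (log2 fold change 0.98 with an SE of 0.18, adjusted p = 0.00263), both without overlap. Their partner Mafg (1.35 ± 0.09), the repressor Bach1 (0.97 ± 0.11) and Keap1 (0.78 ± 0.08), the adaptor that marks NRF2 for degradation, rose as well. The gene for the protease that cleaves NRF1, Ddi2, was not called (−0.09 ± 0.08).

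Genes of ubiquitin and of its conjugation mostly rose where they changed. Ubb, which encodes a chain of ubiquitin repeats, measured 371, 391 and 358 CPM in the DMSO libraries and 2069.5, 1951 and 2243 CPM in the CFZ libraries (log2 fold change 2.48 with an SE of 0.08, adjusted p = 1.34e-08), with no overlap. Rps27a (0.10 ± 0.07), which encodes ubiquitin fused to a ribosomal protein, was not called, and it has processed copies that may share its reads. Across 44 genes of ubiquitin and its conjugation 25 rose and 5 fell (14 and 2 in the 12-library fit). Ligases and adaptors of protein quality control made up 13 of these rises, including Zfand2a and the N-end rule ligase Ubr4 (1.49 ± 0.10), while the chaperone-linked ligase Stub1 fell (−0.65 ± 0.07). Among activating and conjugating enzymes 10 of 23 rose, all by less than 2-fold, and 4 fell, with Ube2c, which serves mitotic exit, lowest (−1.36 ± 0.16).

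Genes of p97, the ATPase that pulls ubiquitylated proteins out of membranes and complexes, rose with the proteasome. Of 17 genes for p97 and its cofactors 13 rose and none fell. The cofactors Nploc4 (1.82 ± 0.06), Ubxn4 (1.72 ± 0.07) and Ufd1 (1.70 ± 0.07) rose more than Vcp, which encodes p97 itself (533 ± 17.7 to 1182 ± 10.6 CPM, 1.15 ± 0.07). Of 9 shuttle factors 3 rose, led by Ubqln1 (1.37 ± 0.07), and 2 fell, Ubl4a (−0.43 ± 0.07) and Ubqln4 (−0.34 ± 0.10). Only the call of Ubl4a was kept without DMSO 2, where Ubqln4 had an adjusted p = 0.0508, and in the 12-library fit (0.0725). Deubiquitinases were mixed, with 17 of 38 higher and 8 lower (4 lower in the 12-library fit). The proteasome-bound Usp14 (0.99 ± 0.08) and Stambp (1.11 ± 0.08) rose, and Usp46 (−1.31 ± 0.07) and Usp1 (−0.65 ± 0.10) fell.

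Cytosolic chaperones were among the most abundant RNAs that rose. Of 50 heat shock genes 38 rose and 5 fell (3 in the 12-library fit), with a median of 0.65, and their summed share went from 1.24 to 1.37% of counts with DMSO to 3.59 to 4.06% with CFZ. Hsp90ab1, the constitutive HSP90, measured 4245, 4563 and 4435 CPM in the DMSO libraries and 11082, 10428 and 11129.9 CPM in the CFZ libraries, and Hsp90aa1, the inducible form, 1065, 1246 and 1315 CPM in the DMSO libraries and 6085, 5779 and 7447 CPM in the CFZ libraries. Hspa8, the constitutive HSP70, measured 1255, 1493 and 1333 CPM in the DMSO libraries and 6274, 6429.6 and 7500.1 CPM in the CFZ libraries. In each case the 3 CFZ libraries lay above all 3 DMSO libraries, and Hsp90ab1 had the highest mean CPM of all genes with CFZ. Hsph1, an HSP110 that recycles HSP70, measured 280.5, 324 and 328 CPM in the DMSO libraries and 2404, 2252 and 2498 CPM in the CFZ libraries (log2 fold change 2.94 with an SE of 0.09, adjusted p = 9.09e-09). The inducible HSP70 genes Hspa1b (19 ± 2.63 to 162 ± 7.18 CPM, 3.09 ± 0.10) and Hspa1a (1.97 ± 0.274 to 16.8 ± 1.21 CPM, 3.08 ± 0.14) are near-identical copies whose reads cannot be divided with certainty.

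Co-chaperones followed the chaperones by family. Of 13 J-domain genes 10 rose, with Dnajb1 (3.09 ± 0.17) highest and Dnajb5 (−0.66 ± 0.15) the 1 that fell. The HSP70 release factor Bag3, which also steers clients to autophagy, rose (2.41 ± 0.12) and Bag5 fell (−0.38 ± 0.09). Of 14 genes of HSP90 and its co-chaperones 12 rose and Fkbp5, a steroid receptor co-chaperone, fell (−1.21 ± 0.09). Small heat shock genes split, with Cryab at 109, 139 and 114 CPM in the DMSO libraries and 831, 1034 and 1269.7 CPM in the CFZ libraries (log2 fold change 3.12 with an SE of 0.17, adjusted p = 2.83e-06) and Hspb8 higher (2.02 ± 0.07), and the low Hspb6 (6.21 ± 0.503 to 4.14 ± 0.57 CPM, −0.59 ± 0.15) and Hspb7 (0.745 ± 0.125 to 0.35 ± 0.15 CPM, −1.06 ± 0.35) lower, the latter a call lost with DESeq2 (adjusted p = 0.0620) and without DMSO 2, CFZ 1 or CFZ 3 (0.0573 to 0.0870). The factor genes Hsf2 (33.7 ± 1.83 to 129 ± 11.3 CPM, 1.94 ± 0.08) and Hsf1 (73.7 ± 5.08 to 117 ± 6.77 CPM, 0.67 ± 0.08) both rose, Hsf2 by more.

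Other folding machines changed less. All 8 subunits of TRiC, the ring that folds actin and tubulin, rose, by log2 fold changes of 0.21 to 0.77, with Cct7 highest. Of 7 prefoldin genes, which hand clients to TRiC, 3 rose. In the 12-library fit 5 of these 15 genes were higher. In mitochondria the chaperonin pair Hspd1 (1225 ± 131 to 2926 ± 115 CPM, 1.26 ± 0.09) and Hspe1 (216 ± 24.5 to 534 ± 37.9 CPM, 1.31 ± 0.09) rose, and so did the proteases Clpp (0.71 ± 0.07) and Lonp1 (0.57 ± 0.06), while Hspa9 was not called (0.10 ± 0.07) and 3 of 8 proteases fell, with Oma1 (−0.83 ± 0.14) and Htra2 (−0.51 ± 0.10) lowest.

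For the heat shock element, 3 alternating units were searched as GAA, TTC and GAA, each 2 bases apart. This strict form was found in 0.564% of tested genes with a window, in 3 of 39 heat shock genes with a window (7.69%, Hsph1, Chordc1 and Dnajb6), in 2 of 11 mitochondrial chaperone and protease genes (Hspd1 and Hspe1) and in 1 of 21 genes of p97 and shuttle factors (Nploc4). All 6 rose, and they belong to lists chosen with earlier results known. Over all tested genes with a window 55 hold it, of which 24 were called higher and 13 lower. The stretches show it upstream of Hspe1 (chr1:55088018-55088117, plus strand, 130 to 31 bases upstream), Nploc4 (chr11:120437821-120437920, minus strand, 220 to 121 bases upstream) and Dnajb6 (chr5:29735798-29735897, plus strand, 100 to 1 bases upstream), a gene from each list. Hspd1 and Hspe1 are known to share a promoter, read in opposite directions.
Hspe1: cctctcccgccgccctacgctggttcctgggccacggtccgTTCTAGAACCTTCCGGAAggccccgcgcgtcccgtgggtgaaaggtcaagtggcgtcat
Nploc4: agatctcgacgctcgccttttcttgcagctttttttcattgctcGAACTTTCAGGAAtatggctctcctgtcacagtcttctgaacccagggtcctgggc
Dnajb6: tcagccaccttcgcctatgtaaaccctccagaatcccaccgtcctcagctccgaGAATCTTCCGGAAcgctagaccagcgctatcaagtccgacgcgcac

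In the ER, chaperones rose and the degradation branch mostly did not. Of 35 genes of the unfolded protein response 21 rose and 2 fell (1 in the 12-library fit), with a median of 0.34. Hspa5, the HSP70 of the ER lumen (BiP), measured 1219, 1271 and 1273 CPM in the DMSO libraries and 4622, 4417 and 4400.0 CPM in the CFZ libraries (log2 fold change 1.84 with an SE of 0.07, adjusted p = 3.49e-08). Dnajb9 (1.67 ± 0.14), its J-domain partner, and the disulfide oxidases Ero1b (1.14 ± 0.12) and Ero1a (0.92 ± 0.08) rose too, whereas the disulfide isomerases P4hb (0.01 ± 0.09) and Pdia6 (−0.09 ± 0.08) were not called. Of 11 genes of ER-associated degradation 4 rose, including the ligase Syvn1 (0.85 ± 0.09) and Herpud1 (0.60 ± 0.09), and Edem2 fell (−0.43 ± 0.11). The sensors Ern1 (0.75 ± 0.08) and Atf6 (0.70 ± 0.09) rose by less than 2-fold. Xbp1 measured 122, 100.1 and 97.3 CPM in the DMSO libraries and 139.9, 143 and 122 CPM in the CFZ libraries, with overlap (log2 fold change 0.34 with an SE of 0.10, adjusted p = 0.0132), and its call was lost without DMSO 2, DMSO 3 or CFZ 2 (adjusted p = 0.0534, 0.0596 and 0.0557) and when libraries were scaled by ribosomal protein genes (0.127). The third sensor, Eif2ak3 (0.10 ± 0.11), was not called, and the membrane-bound factor Creb3l2 fell (−1.40 ± 0.15).

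Promoter windows of the ER chaperone genes were searched as well, which describes the list and not the effect of CFZ. The ER stress response element, searched as a CCAAT box and CCACG that are 9 bases apart, was found in 8 of 15 genes for ER chaperones and oxidoreductases with a window (53.3%), against 0.164% of all tested genes with a window. The CCAAT letters alone, which are part of this motif, were in 14 of the 15 (93.3%, against 43.7%). The 8 genes were Hspa5, Hsp90b1, Calr, Canx, Dnajc3, Creld2, Ero1b and Pdia6, and all but Pdia6 rose. Calr rose least (0.28 ± 0.08), a call lost with library size scaling (adjusted p = 0.0588). Among all tested genes with a window 16 held the element, 9 of them called higher and 2 lower. The element is shown for 3 of the genes that rose, Hspa5 (chr2:34771984-34772083, plus strand, 106 to 7 bases upstream), Ero1b (chr13:12565641-12565740, plus strand, 242 to 143 bases upstream) and Dnajc3 (chr14:118937786-118937885, plus strand, 146 to 47 bases upstream). In Ero1b it lies on the opposite strand.
Hspa5: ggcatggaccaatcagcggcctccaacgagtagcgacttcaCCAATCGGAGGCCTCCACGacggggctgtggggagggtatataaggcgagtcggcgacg
Ero1b: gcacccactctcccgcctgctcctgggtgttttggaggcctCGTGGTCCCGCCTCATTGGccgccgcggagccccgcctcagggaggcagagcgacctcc
Dnajc3: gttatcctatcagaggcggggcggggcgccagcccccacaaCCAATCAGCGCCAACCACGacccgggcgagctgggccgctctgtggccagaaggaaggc

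The integrated stress response, in which kinases slow translation and ATF4 turns on amino acid genes, was divided. Of 31 genes 16 rose and 5 fell (2 in the 12-library fit). Atf4 RNA measured 612, 706 and 672 CPM in the DMSO libraries and 807, 692 and 631 CPM in the CFZ libraries and was not called (log2 fold change 0.10 with an SE of 0.10, adjusted p = 0.409), and the groups overlapped. Atf3 measured 5.94, 5.6 and 6.29 CPM in the DMSO libraries and 139, 138 and 169 CPM in the CFZ libraries, Ddit3, the death-linked factor CHOP, 35.6, 35.1 and 43.1 CPM in the DMSO libraries and 161, 142 and 132 CPM in the CFZ libraries, and Ppp1r15a, the phosphatase subunit that restores translation, 27.3, 23 and 18.4 CPM in the DMSO libraries and 192, 158 and 149.9 CPM in the CFZ libraries. These 3 did not overlap and were called (4.64 ± 0.11, 1.94 ± 0.10 and 2.86 ± 0.16). Of 17 targets 4 rose by at least 2-fold, among them Sesn2 (1.39 ± 0.09), Chac1 (1.31 ± 0.09) and Ddit4 (1.24 ± 0.09). The highest log2 fold change of the 17, called or not, was 4.12. Asns (0.12 ± 0.10), the asparagine synthetase that is a standard ATF4 target, was called only in the fit with a replicate block (adjusted p = 0.0251). The serine enzyme gene Psat1 fell (−0.61 ± 0.09). Atf5 also fell (−1.20 ± 0.11).

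Genes for amino acid supply showed the same partial pattern. The cystine transporter Slc7a11 measured 42, 55.9 and 55.7 CPM in the DMSO libraries and 477, 510.5 and 548 CPM in the CFZ libraries (log2 fold change 3.32 with an SE of 0.12, adjusted p = 3.24e-08), and 9 other amino acid transporters of 22 rose, while Slc38a4 fell (−1.25 ± 0.26) and the leucine transporter Slc7a5 was not called (−0.04 ± 0.10). Of 20 cytosolic aminoacyl-tRNA synthetases 12 rose and none fell, by at most 0.80 on the log2 scale (Nars1), whereas of 17 mitochondrial synthetases 3 rose and 6 fell. In the 12-library fit 4 of the 37 synthetases were higher and 3 lower.

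The C/EBP-ATF response element (TGATGNAA) was found in 7 of 28 genes of this stress response with a window (25.0%), against 2.68% of tested genes with a window. Among genes called higher the share was 3.18%, near that of all, and among those called lower 2.22%. The element is shown for Atf3 (chr1:191183390-191183489, minus strand, 156 to 57 bases upstream) and Nupr1 (chr7:126625527-126625626, minus strand, 156 to 57 bases upstream), where the capitals are the same letters read on the opposite strand. Both were picked for the size of their fold change.
Atf3: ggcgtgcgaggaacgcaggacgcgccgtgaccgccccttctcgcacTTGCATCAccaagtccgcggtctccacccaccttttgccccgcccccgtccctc
Nupr1: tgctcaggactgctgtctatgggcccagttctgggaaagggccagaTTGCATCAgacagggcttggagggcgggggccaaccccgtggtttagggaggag

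Targets of NRF2 rose in every branch listed. Of 43 genes 30 rose and 3 fell, with a median of 0.96, and 21 rises were at least 2-fold. For glutathione and thioredoxin, the glutathione synthesis genes Gclm (2.20 ± 0.08), Gclc (1.22 ± 0.08) and Gss (1.05 ± 0.07), the reductases Srxn1 (2.79 ± 0.10) and Txnrd1 (1.45 ± 0.07) and the peroxidase Prdx1 (2.02 ± 0.07) rose, while Txn1, which encodes thioredoxin itself, was not called (−0.04 ± 0.07). For haem and iron, Hmox1, the biliverdin reductase Blvrb (2.28 ± 0.10) and ferritin heavy chain Fth1 (1.04 ± 0.10) rose. The quinone reductase Nqo1, a common NRF2 reporter, measured 77, 58.4 and 78 CPM in the DMSO libraries and 145, 113 and 136 CPM in the CFZ libraries (log2 fold change 0.89 with an SE of 0.13, adjusted p = 0.000293), a smaller rise than those of Hmox1 or Srxn1. For NADPH supply, Taldo1 (1.46 ± 0.07), Me1 (1.08 ± 0.08) and Pgd (0.96 ± 0.07) rose, G6pdx was not called (0.05 ± 0.08) and Idh1 fell (−0.70 ± 0.10). Abcg2 (−1.10 ± 0.11) and Ugdh (−0.62 ± 0.10) were the others that fell. Of 7 other genes of iron handling 3 rose and 2 fell. The larger fall was that of the transferrin receptor gene Tfrc, which serves iron uptake, at 125, 200.1 and 123 CPM in the DMSO libraries and 46.3, 60.1 and 43.5 CPM in the CFZ libraries (log2 fold change −1.58 with an SE of 0.23, adjusted p = 0.00154). The antioxidant response letters were in 10 of 36 NRF2 targets with a window (27.8%), against 17% of all tested genes with a window. In the other lists searched the share ran from 9.09% (mitochondrial chaperones and proteases) to 25.8% (core and cap genes). It was 25.0% in the DNA replication list, which mostly fell, so the letters were not particular to NRF2 targets. They are shown for Gclm (chr3:122245377-122245476, plus strand, 180 to 81 bases upstream) and Prdx1 (chr4:116685420-116685519, plus strand, 179 to 80 bases upstream).
Gclm: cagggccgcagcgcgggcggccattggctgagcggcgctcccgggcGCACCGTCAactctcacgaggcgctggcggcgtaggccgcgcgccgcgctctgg
Prdx1: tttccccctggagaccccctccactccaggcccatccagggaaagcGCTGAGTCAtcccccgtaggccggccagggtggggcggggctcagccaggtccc

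Of 36 autophagy genes 21 rose, among them 6 of 7 receptors. Sqstm1, the p62 receptor that collects ubiquitylated proteins and competes for KEAP1, measured 358, 339 and 346 CPM in the DMSO libraries and 3992, 3685 and 4185 CPM in the CFZ libraries (log2 fold change 3.51 with an SE of 0.08, adjusted p = 1.79e-09), and Tax1bp1 (1.16 ± 0.07), Optn (0.99 ± 0.15), Tollip (0.81 ± 0.08) and Nbr1 (0.51 ± 0.10) also rose. Of the ATG8 genes, which coat the autophagosome, Gabarapl1 rose (2.08 ± 0.07) and Map1lc3b was not called (0.11 ± 0.07). The initiation genes Ulk1 (1.37 ± 0.09) and Atg14 (1.61 ± 0.11) rose and Ulk2 fell (−0.46 ± 0.10). Lysosomal genes were nearer the background, with 17 of 48 higher and 7 lower. In the fit with a replicate block 26 were higher, and in the 12-library fit 10 were higher and 2 lower. Without DMSO 1 or CFZ 2, 4 were lower. The rises included 9 of 15 proton pump genes, led by Atp6v1h (1.48 ± 0.07). Of the 2 lysosomal master factors, Tfe3 rose (0.93 ± 0.07). Tfeb, at about 10 CPM, fell (−0.40 ± 0.15) with overlap, and its call was lost without DMSO 1, DMSO 3, CFZ 2 or CFZ 3 (adjusted p = 0.0959 to 0.170).

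Genes of the p53 pathway rose without exception in direction among those called. Of 35 tested 28 rose and none fell, with a median of 0.94. Without DMSO 2, in the fit with a replicate block, or with libraries scaled by ribosomal protein genes, 1 fell. Trp53 itself measured 161, 181 and 178 CPM in the DMSO libraries and 258, 272 and 289 CPM in the CFZ libraries (log2 fold change 0.65 with an SE of 0.07, adjusted p = 2.86e-05). Mdm2, its ligase and target, measured 138, 120.4 and 116 CPM in the DMSO libraries and 569, 566 and 656 CPM in the CFZ libraries (log2 fold change 2.26 with an SE of 0.09, adjusted p = 3.63e-08), and Cdkn1a, the p21 cell cycle inhibitor, 151, 131 and 142 CPM in the DMSO libraries and 433, 354 and 333 CPM in the CFZ libraries (log2 fold change 1.40 with an SE of 0.10, adjusted p = 1.58e-06). Gadd45a measured 27.1, 25.1 and 30.8 CPM in the DMSO libraries and 238, 233 and 233 CPM in the CFZ libraries (log2 fold change 3.09 with an SE of 0.09, adjusted p = 6.18e-09) and was 1 of the 10 genes with the smallest p. The groups did not overlap for any of these 4. Other p53 targets were not called, among them Sesn1 (0.12 ± 0.13), Xpc (0.07 ± 0.09) and Ddb2 (−0.28 ± 0.19). Several of the genes that rose are also known targets of other stress factors, Gadd45a, Sesn2 and Pmaip1 among them.

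Death genes moved in both directions. Of 14 tested genes of the BCL2 family 4 rose and 6 fell (2 rose in the 12-library fit), and the effector and BH3-only genes, which promote death, gave 4 of each. The receptors Fas (3.59 ± 0.29) and Tnfrsf10b (2.25 ± 0.09), the BH3-only gene Pmaip1 (NOXA) at 5.24, 4.2 and 5.15 CPM in the DMSO libraries and 22.8, 24.7 and 31.6 CPM in the CFZ libraries (log2 fold change 2.44 with an SE of 0.15, adjusted p = 4.04e-07) and the effector Bax (0.81 ± 0.09) rose. Of the death-promoting members Bok (−0.67 ± 0.11), Bad (−0.47 ± 0.12), Bcl2l11 (−0.44 ± 0.12) and Bmf fell. Bmf had the largest change of the family (3.68 ± 2.96 to 0.43 ± 0.21 CPM, −3.10 ± 0.80), and its call was lost without any 1 of the 3 CFZ libraries (adjusted p = 0.0578 to 0.0708) and with no filter on low counts (0.0911). Of the survival genes, Bcl2 (21.4 ± 1.13 to 9.39 ± 0.833 CPM, −1.18 ± 0.10) and Bcl2l1 (92.7 ± 14.6 to 56.1 ± 10.9 CPM, −0.72 ± 0.17) fell. Mcl1, a short-lived survival protein whose RNA was measured here, was at 189.5, 161 and 137 CPM in the DMSO libraries and 194, 167 and 171 CPM in the CFZ libraries and was not called (log2 fold change 0.13 with an SE of 0.11, adjusted p = 0.367). Without DMSO 1 it was called, at an adjusted p = 0.0473. Of 22 genes of caspases, their adaptors and inhibitors 11 rose (7 in the 12-library fit) and 7 fell. Mlkl, the executor of necroptosis, rose (115 ± 0.928 to 379.7 ± 23.9 CPM, 1.73 ± 0.07), as did Casp4, Birc3 and Diablo. Casp6 (−0.79 ± 0.10), Xiap (−0.77 ± 0.10) and the mitotic survivin gene Birc5 (−1.37 ± 0.10) fell.

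Mitotic genes fell together. Of 52 tested 49 fell and none rose, with a median of −1.05, and 27 of the falls were at least 2-fold. The other 3 were Mastl (−0.16 ± 0.09), Mybl2 (−0.12 ± 0.09) and Ndc80 (−0.14 ± 0.08), and in the fit with a replicate block Mastl and Ndc80 were lower too (adjusted p = 0.0255 and 0.0344). The list held 0.608 to 0.706% of counts with DMSO and 0.292 to 0.317% with CFZ. Plk1, the polo kinase, measured 97.1, 123 and 98 CPM in the DMSO libraries and 28.2, 25.6 and 21.2 CPM in the CFZ libraries (log2 fold change −2.08 with an SE of 0.12, adjusted p = 7.67e-07), and cyclin A2 (Ccna2) 168, 202 and 174 CPM in the DMSO libraries and 45.5, 46 and 41.2 CPM in the CFZ libraries (log2 fold change −2.03 with an SE of 0.09, adjusted p = 6.11e-08), with no overlap. Cyclin B1 (Ccnb1, −1.38 ± 0.12), Cdk1 (−1.12 ± 0.11), Aurkb (−1.46 ± 0.09), the kinesin Kif20a (−1.52 ± 0.11), the centromeric histone Cenpa (−1.46 ± 0.09) and the ring assembly gene Anln (−1.58 ± 0.09) fell by more than 2-fold, and Bub1 (−0.31 ± 0.07) and Tpx2 (−0.31 ± 0.08) by less than 1.5-fold. In RNA of a whole culture, fewer cells in a phase and less RNA per cell cannot be told apart.

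Mitotic promoters are known for the cell cycle genes homology region (CHR), whose letters TTTGAA were in 30 of 44 mitotic genes with a window (68.2%), against 14.3% of all tested genes with a window, 16.2% of those that fell and 17.5% of the DNA replication list. The CCAAT box was in 30 of the 44 as well (68.2%, against 43.7%). The element is shown for 3 mitotic genes that fell, Ube2c (chr2:164769829-164769928, plus strand, 100 to 1 bases upstream), Prc1 (chr7:80294376-80294475, plus strand, 100 to 1 bases upstream) and Kif2c (chr4:117178823-117178922, minus strand, 150 to 51 bases upstream). On the opposite strand it reads TTCAAA.
Ube2c: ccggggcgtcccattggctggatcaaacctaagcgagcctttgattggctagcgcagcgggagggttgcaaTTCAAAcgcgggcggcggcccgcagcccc
Prc1: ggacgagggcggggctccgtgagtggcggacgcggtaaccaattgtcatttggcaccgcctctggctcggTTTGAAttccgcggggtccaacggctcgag
Kif2c: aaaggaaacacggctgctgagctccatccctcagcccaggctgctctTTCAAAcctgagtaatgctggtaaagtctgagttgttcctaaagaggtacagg

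Genes that control entry into the cycle mostly fell with them. Of 25 genes of G1 control, which hold drivers and inhibitors of entry, 21 fell. These were 8 of 9 genes of cyclins and CDKs, 10 of 12 of E2F and pocket proteins and 3 of 4 CDK inhibitors. Ccnd1 (cyclin D1), the cyclin that answers to growth factors, measured 354, 408 and 354 CPM in the DMSO libraries and 104, 114 and 101 CPM in the CFZ libraries (log2 fold change −1.81 with an SE of 0.08, adjusted p = 7.04e-08), and Ccnd3 (−1.61 ± 0.08), Ccne1 (−1.58 ± 0.10), Cdk4 (−0.76 ± 0.07) and Cdk2 (−0.86 ± 0.07) fell too. The inhibitors did not share a direction: Cdkn1a rose, while Cdkn1b, which encodes p27 (102 ± 9.23 to 45.8 ± 4.46 CPM, −1.15 ± 0.09), Cdkn2c (−1.05 ± 0.09) and Cdkn2d (−2.12 ± 0.12) fell. Rb1 was the other gene that rose (0.77 ± 0.12).

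DNA replication genes fell by less. Of 49 tested 36 fell and 1 rose (0 in the 12-library fit and with library size or ribosomal protein scaling, 3 without CFZ 1, 2 without CFZ 3 and 4 in the fit with a replicate block), with a median of −0.56 and 3 falls of at least 2-fold. These 3 supply nucleotides: Tk1 (−1.73 ± 0.10), Rrm2 (−1.32 ± 0.10) and Dut (−1.05 ± 0.09). The helicase genes Mcm2 to Mcm7 all fell, from Mcm2 (−0.42 ± 0.07) to Mcm3 (−0.77 ± 0.07). All 9 tested histone variants made from polyadenylated RNA fell, from Macroh2a1 (−0.37 ± 0.06) to H1f0 (−2.05 ± 0.11) and H2ax. Of 49 replication-dependent histone genes, whose RNA has no poly(A) tail and is largely lost in this library type, 10 could be tested. DNA repair genes fell too, 28 of 40 (17 in the 12-library fit), with the uracil glycosylase Ung (−1.52 ± 0.16) and the checkpoint scaffold Mdc1 (−1.24 ± 0.09) lowest, while Xpa (0.78 ± 0.12) and Trp53bp1 (0.57 ± 0.07) rose.

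**Figure D4:**
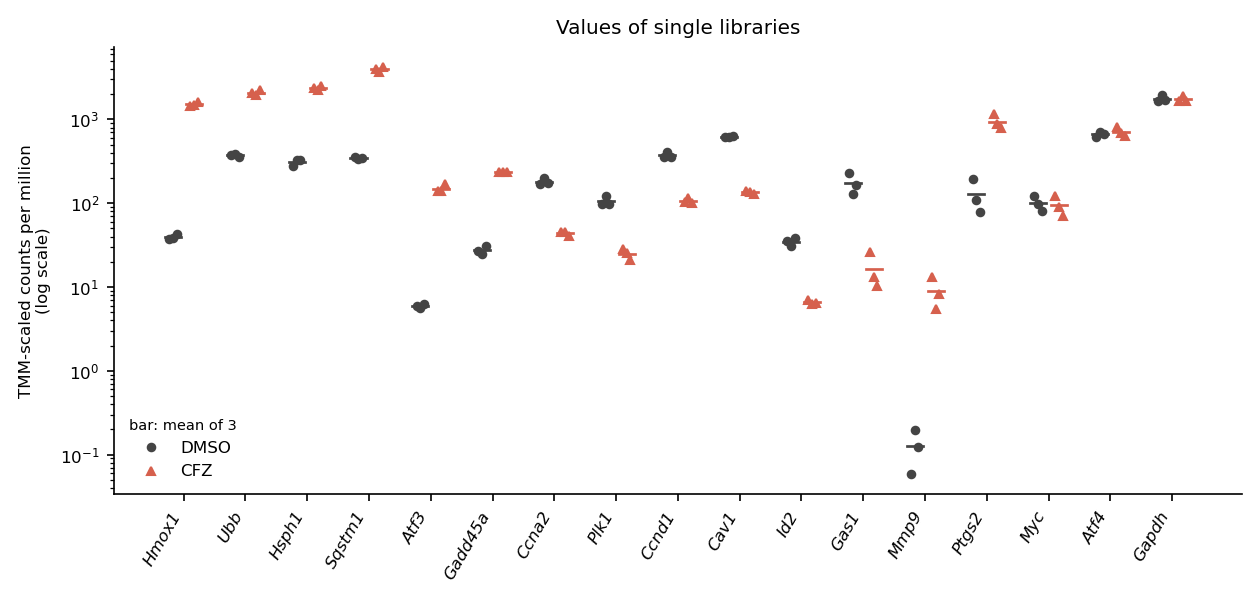
TMM-scaled CPM (vertical log axis) of 17 genes in each of the 3 DMSO libraries (circles) and 3 CFZ libraries (triangles), with a bar for the mean. The groups are apart for stress genes such as Hmox1 (38.2-fold higher) and for Ccna2 and Cav1 (lower), and overlap for Myc, Atf4 and Gapdh.

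Signalling genes were mostly lower where they changed, with separate exceptions. In the BMP and TGF-beta pathway 17 of 34 fell and 7 rose, none of the latter by 2-fold (10 and 1 in the 12-library fit). The ID genes, direct BMP targets that hold back differentiation, fell: Id2 measured 35, 31 and 38.2 CPM in the DMSO libraries and 7.02, 6.22 and 6.41 CPM in the CFZ libraries (log2 fold change −2.41 with an SE of 0.11, adjusted p = 6.21e-08), and Id1 (−1.33 ± 0.22) and Id3 (−1.99 ± 0.12) followed. The antagonist Smad6, also a BMP target, fell 7.05-fold, whereas Smad7, the target of TGF-beta, was not called (−0.06 ± 0.16). In the Hedgehog pathway Gas1, the receptor and target Ptch1 (−0.96 ± 0.10), and the factors Gli1 (−0.90 ± 0.24) and Gli3 (−0.74 ± 0.08) fell, 4 of 10, and the co-receptor Boc rose (0.69 ± 0.10). Of 20 Wnt genes 11 fell, among them the receptors Fzd2 (−1.96 ± 0.07) and Fzd4 (−1.55 ± 0.13). Of 9 Notch genes Hes1 (−1.59 ± 0.21), Lfng (−1.65 ± 0.17) and 2 others fell and Jag1 (0.69 ± 0.11) and 2 others rose. The 4 rises of both lists were 2 without DMSO 3 or CFZ 1 and under 3 other scalings, and 1 in the 12-library fit.

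Receptors and ligands both fell more often than they rose. Of 26 receptor tyrosine kinases 14 fell and 5 rose (3 when scaled by ribosomal protein genes, 1 in the 12-library fit). Pdgfrb, through which serum PDGF acts, measured 249, 181 and 172 CPM in the DMSO libraries and 59.4, 48.9 and 36 CPM in the CFZ libraries (log2 fold change −2.06 with an SE of 0.23, adjusted p = 0.000361), while its relative Pdgfra was not called (−0.24 ± 0.35). Axl fell (1064 ± 98.2 to 479 ± 61.3 CPM, −1.15 ± 0.10) and Epha2 rose (132 ± 28.5 to 271 ± 39 CPM, 1.04 ± 0.17). Of 24 growth factor ligands 11 fell and 6 rose. Vegfa (1.27 ± 0.17) and Csf1 (1.23 ± 0.24) rose and Apln, Angptl4 (−1.49 ± 0.26), Angptl2 (−1.29 ± 0.15) and Fgf10 (−1.19 ± 0.12) fell. Of 25 G protein-coupled receptors and prostaglandin genes 12 fell, with the sphingosine receptor S1pr3 lowest (−2.29 ± 0.08). Ptgs2, the inducible cyclooxygenase, measured 197, 109 and 78.8 CPM in the DMSO libraries and 1156, 872 and 789 CPM in the CFZ libraries (log2 fold change 2.87 with an SE of 0.42, adjusted p = 0.00343). Replicate 1 was highest in both groups for Ptgs2.

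Targets of the YAP-TEAD coactivators split inside 1 family. Ccn1 measured 209, 142 and 116 CPM in the DMSO libraries and 560.2, 332 and 392 CPM in the CFZ libraries (log2 fold change 1.46 with an SE of 0.30, adjusted p = 0.0095), and its call was lost without DMSO 2 (adjusted p = 0.0576). Ccn2 fell from 293 ± 65.9 to 143 ± 22.1 CPM (−1.04 ± 0.19) and Ccn5 from 31.3 ± 8.65 to 10.6 ± 3.66 CPM (−1.57 ± 0.31). Of the 17 genes of the list 10 fell and 3 rose, and 1 rose without DMSO 2 and 5 in the fit with a replicate block.

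Immediate early genes changed singly. Of 26 tested 4 rose and 6 fell, and in the fit with a replicate block 8 rose. Ier3 and Fosl1 (1.05 ± 0.19) rose by at least 2-fold and Nab2, Ier5l (−1.36 ± 0.11) and Jund (−1.10 ± 0.13) fell by at least 2-fold. Egr1 (298, 22 and 16.8 CPM in the DMSO libraries and 212, 2.94 and 2.11 CPM in the CFZ libraries) and Fos (5, 0.614 and 0.705 CPM in the DMSO libraries and 4.43, 0.542 and 0.939 CPM in the CFZ libraries) were not called. The summed share of the list was 0.189% in DMSO 1 and 0.212% in CFZ 1, against 0.113 to 0.142% in the other 4 libraries, so replicate 1 was higher in both groups. The part of that difference in the single results was not tested. Myc, the growth factor-induced driver of biosynthesis, measured 120.4, 98.8 and 80.1 CPM in the DMSO libraries and 121, 90.2 and 71.1 CPM in the CFZ libraries and was not called (log2 fold change −0.08 with an SE of 0.23, adjusted p = 0.783), with overlap. Of the MYC network, Mlx rose (1.07 ± 0.07) and Mxd3 fell (−1.62 ± 0.12). Cebpd fell (−1.79 ± 0.43), a call lost without CFZ 2 (adjusted p = 0.0724).

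The NF-kB system rose at its own components. Of 19 subunits and feedback genes 16 rose and none fell. The inhibitor Nfkbia, an NF-kB target, measured 13.6, 14.2 and 14.5 CPM in the DMSO libraries and 63.5, 45.3 and 44.6 CPM in the CFZ libraries (log2 fold change 1.86 with an SE of 0.14, adjusted p = 2.49e-06), Relb 9.45, 7.2 and 7.7 CPM in the DMSO libraries and 56.3, 39.7 and 49 CPM in the CFZ libraries (log2 fold change 2.57 with an SE of 0.15, adjusted p = 5.87e-07) and Nfkb2 79.1, 79.1 and 75.5 CPM in the DMSO libraries and 272, 221 and 229.8 CPM in the CFZ libraries (log2 fold change 1.63 with an SE of 0.09, adjusted p = 1.9e-07), all without overlap, and Rela rose less (0.86 ± 0.07). Nfkb1 was not called (−0.08 ± 0.08). Of 21 tested chemokine and cytokine genes 9 rose and 5 fell. Over both groups together 5 of 40 fell, 8 in the fit with a replicate block and 2 in the 12-library fit. Ccl2 measured 48, 26.8 and 22.3 CPM in the DMSO libraries and 592, 212 and 129 CPM in the CFZ libraries (log2 fold change 3.27 with an SE of 0.78, adjusted p = 0.0245) and Ccl7 49.1, 28 and 26.7 CPM in the DMSO libraries and 296, 112 and 84 CPM in the CFZ libraries (log2 fold change 2.25 with an SE of 0.64, adjusted p = 0.0405), and in both genes replicate 1 was highest in each group. The call of Ccl2 was lost without DMSO 1, DMSO 2, DMSO 3 or CFZ 2 (adjusted p = 0.0524 to 0.0940), and so was that of Ccl7 (0.0695 to 0.134). Cxcl1 rose (8.24 ± 1.44 to 56.1 ± 17 CPM, 2.76 ± 0.25), whereas Cxcl12 and the interleukin-33 receptor Il1rl1 (765 ± 219 to 285 ± 72.6 CPM, −1.42 ± 0.28) fell.

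Interferon-stimulated genes gave 12 rises and 4 falls among 28 tested (7 and 2 in the 12-library fit, and 2 falls without DMSO 3). The largest rise was that of Trim30a (1.38 ± 0.24), and Ifit2 fell (81.4 ± 6.21 to 28.6 ± 4.69 CPM, −1.51 ± 0.12). Of 12 genes of antigen presentation 9 rose and none fell (1 in the fit with a replicate block). They included the peptide transporters Tap1 (1.28 ± 0.12) and Tap2 (1.01 ± 0.18) and the class I genes H2-D1 (298 ± 14 to 545 ± 46.6 CPM, 0.87 ± 0.08) and H2-K1 (0.86 ± 0.12), whose reads may be shared. The immunoproteasome subunits Psmb9 (about 1 CPM) and Psmb10 (−0.06 ± 0.13) were not called, unlike the 7 constitutive beta ring genes.

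**Figure D5:**
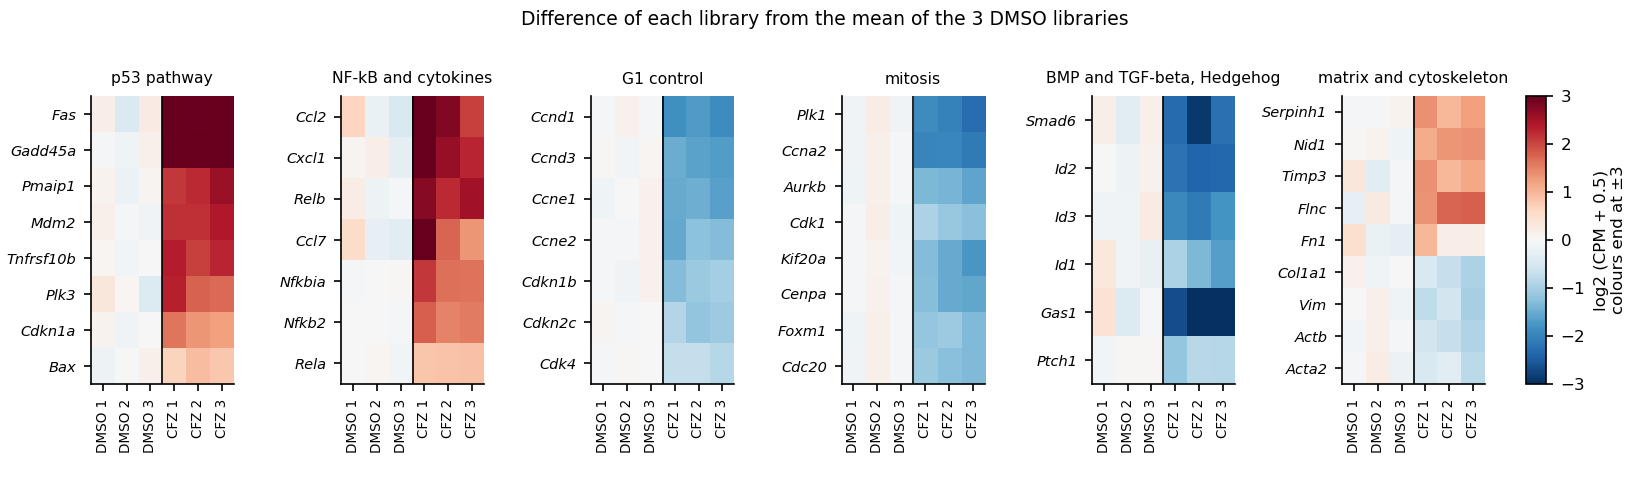
Difference of each library (columns) from the mean of the 3 DMSO libraries, on the scale log2 (CPM + 0.5), for named genes (rows) of 6 groups, with colours ending at ±3. The 3 CFZ libraries share a direction in nearly every row, and replicate 1 lies above the others of its group for Ccl2, Ccl7 and Fn1.

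Metabolic genes changed without 1 direction. Of 28 genes of glycolysis 11 fell and 4 rose (5 and 1 in the 12-library fit, and 2 rose when scaled by ribosomal protein genes). Ldha, the lactate dehydrogenase, measured 1112, 1166 and 1104 CPM in the DMSO libraries and 499.7, 539 and 393 CPM in the CFZ libraries (log2 fold change −1.24 with an SE of 0.11, adjusted p = 5.62e-06), and the kinase Pdk1 (−1.70 ± 0.10), Eno3 (−1.40 ± 0.11) and Pfkl (−0.99 ± 0.10) fell, while the glucose transporter Slc2a1 (0.51 ± 0.13) and Gpi1 (0.48 ± 0.07) rose. Gapdh was at 1643, 1933 and 1725 CPM in the DMSO libraries and 1671, 1898 and 1658 CPM in the CFZ libraries and was not called (−0.02 ± 0.09), and its sign turned when single libraries were left out. Hypoxia genes split, with Vegfa and the collagen-modifying P4ha2 (1.24 ± 0.08) and Plod2 (1.17 ± 0.09) higher and Apln, Bnip3 (−1.22 ± 0.10) and the oxygen sensor Egln1 (−1.07 ± 0.08) lower.

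Nuclear genes of the respiratory chain were slightly lower. Of 75 tested 30 fell and 9 rose, none by 2-fold, with a median of −0.13. Ndufb3 (−0.75 ± 0.09) and Ndufb10 (−0.58 ± 0.09) fell most and Ndufa10 rose most (0.53 ± 0.07). In the 12-library fit 4 were lower and 1 higher, and with libraries scaled by ribosomal protein genes 36 were lower and 4 higher. None of the 13 mitochondrially encoded genes was called by edgeR, none had an unadjusted p under 0.05, and none was called by DESeq2 or limma-voom. Among them was mt-Co1 (5856, 4856 and 6605 CPM in the DMSO libraries and 6964, 5131 and 8104 CPM in the CFZ libraries). Without CFZ 2, 2 of the 13 were higher, and in the fit with a replicate block 3 were, mt-Co1 with an adjusted p = 0.00159.

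Lipid and one-carbon genes were mixed. Of 28 sterol genes 10 rose and 9 fell (5 without CFZ 3 and in the 12-library fit), with the cholesterol synthesis genes Hmgcs1 (0.07 ± 0.15), Sqle (0.06 ± 0.11) and Srebf2 (−0.02 ± 0.09) not called. Of 35 fatty acid genes 14 rose, led by the nuclear receptor Ppard (1.64 ± 0.08) and Lpin1 (1.37 ± 0.14), and 10 fell (6 in the 12-library fit), with Ppargc1b (−1.81 ± 0.21) and Fabp5 (−1.33 ± 0.12) lowest. Among polyamine and one-carbon genes, Amd1, which makes the aminopropyl donor, fell (285 ± 25.6 to 88.8 ± 6.67 CPM, −1.68 ± 0.09) and Sms fell (−0.78 ± 0.12), whereas the polyamine-degrading Sat1 (1.06 ± 0.07) rose. Of 20 clock genes the repressors Cry1 (0.77 ± 0.09) and Cry2 (1.17 ± 0.08) rose, Bmal1 (−1.16 ± 0.20) and Dbp fell, and Per1 (0.10 ± 0.11) and Per2 (−0.14 ± 0.10) were not called.

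Ribosomal protein genes hardly moved. Of 77 cytosolic genes 10 rose and 3 fell, with Rpl10a highest (0.34 ± 0.07) and a median of 0.06, and their share of counts was 3.96 to 4.31% with DMSO and 3.90 to 4.38% with CFZ. In the fit with a replicate block 27 rose and 5 fell. The number of rises was 1 without DMSO 1 or CFZ 2, 3 without DMSO 3, 4 without CFZ 3 and 17 without CFZ 1, and the number of falls was 1 without DMSO 2, DMSO 3, CFZ 1 or CFZ 3. Scaling by library size gave 1 rise and 8 falls, scaling by these genes themselves 1 and 9, and the 12-library fit 0 and 0. Which direction had more calls thus turned with the scaling. Mitochondrial ribosomal protein genes spread more widely than these, with 23 of 77 higher and 19 lower (11 lower in the 12-library fit), from Mrpl1 (1.01 ± 0.11) to Mrpl36 (−0.92 ± 0.13). Their shares in the 6 libraries, 29.9% higher and 24.7% lower, were near those of all genes tested (28.3% and 28.9%). Of 48 translation factors 20 rose and 6 fell (9 and 2 in the 12-library fit, and 10 fell when scaled by ribosomal protein genes). The initiation factor gene Eif2b4 rose most (0.99 ± 0.07) and Eif4ebp2, a repressor of cap-dependent initiation, fell most (−0.89 ± 0.07). Of 56 genes of ribosome biogenesis 13 rose and 10 fell, with the block 26 and 16, and in the 12-library fit 6 and 5. The rises were 20 without DMSO 2 and 22 without CFZ 1, and the falls 16 with library size scaling and 17 with ribosomal protein scaling. The polymerase I factor Ubtf fell (−1.46 ± 0.08) and Nop14 rose (0.89 ± 0.07).

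Genes of splicing and of transcription elongation diverged. Of 43 genes of SR and hnRNP splicing factors 23 fell and 8 rose (12 and 3 in the 12-library fit), with a median of −0.29. Hnrnpa0 (−1.0 ± 0.07), Hnrnpr (−0.86 ± 0.07) and the cold-inducible Rbm3 (−0.71 ± 0.13) fell, and Rbm39 (0.75 ± 0.08) and the kinase Clk3 (0.74 ± 0.08) rose. Of 26 genes of transcription elongation 15 rose and 4 fell (2 without DMSO 2 and 0 in the 12-library fit). The rises were led by Aff1, a scaffold of the super elongation complex (64.3 ± 5.92 to 257 ± 30.1 CPM, 2.0 ± 0.10), Supt6 (1.06 ± 0.07) and Ell2 (0.98 ± 0.10), while Cdk9 (−0.04 ± 0.07) was not called. Of 20 snoRNA host genes and nuclear long noncoding RNAs 11 rose, with a median of 0.73. They included Snhg12 (1.91 ± 0.11), Snhg1 (1.67 ± 0.16), Gas5 (0.91 ± 0.10) and Malat1 (1.11 ± 0.10).

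Matrix genes went in both directions, and the number called changed when single libraries were left out. Of 21 collagen genes 7 fell and 1 rose, the latter Col6a3 with overlap (0.29 ± 0.11). Col1a1, the main chain of type I collagen, measured 8842, 7352 and 7979 CPM in the DMSO libraries and 5826, 5016 and 4171 CPM in the CFZ libraries (log2 fold change −0.69 with an SE of 0.12, adjusted p = 0.000796), and Col1a2 9942, 7283 and 8353 CPM in the DMSO libraries and 7749, 4920.4 and 5222 CPM in the CFZ libraries, with overlap (log2 fold change −0.52 with an SE of 0.19, adjusted p = 0.0447). Collagens took 3.15% of counts in DMSO 1 and 2.29% in CFZ 1, against 2.39 and 2.65% in the other DMSO and 1.69 and 1.59% in the other CFZ libraries, so each CFZ library was below the DMSO library of its number. In the fit with a replicate block 15 of 21 fell. The count of falls was 14 without CFZ 1, 3 without CFZ 2 and 4 without CFZ 3, and 1 in the 12-library fit. The calls of Col1a2 and Col6a3 were lost without single libraries (adjusted p = 0.0882 to 0.147 for Col1a2 and 0.0515 to 0.154 for Col6a3, each in 4 of the 6 cases).

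Other matrix genes behaved singly. Serpinh1, the HSP47 chaperone that folds collagen and is known as a heat shock gene, rose (1017, 996 and 1129 CPM in the DMSO libraries and 2711, 2093 and 2466 CPM in the CFZ libraries, 1.21 ± 0.10), and so did the basement membrane linker Nid1 (1209.8 ± 96.2 to 2919.7 ± 259.6 CPM, 1.27 ± 0.09) and the urokinase receptor Plaur (1.41 ± 0.17). Fibronectin (Fn1), among the most abundant genes, measured 8408, 5294 and 4978 CPM in the DMSO libraries and 11994, 6996 and 6842 CPM in the CFZ libraries and was not called (log2 fold change 0.47 with an SE of 0.31, adjusted p = 0.244), with overlap. In the fit with a replicate block it was higher (adjusted p = 2.4e-07). The crosslinking enzyme Loxl3 (−1.11 ± 0.12) and Efemp1 (−0.92 ± 0.12) fell. Over the 38 genes of the list 6 rose and 13 fell, with the block 10 and 24, and in the 12-library fit 3 and 4. Besides Mmp9, the inhibitor Timp3 (707 ± 162 to 1578 ± 202 CPM, 1.16 ± 0.17) and Adamts4 (1.38 ± 0.24) rose, and Timp2 (1035 ± 126 to 577 ± 90.9 CPM, −0.84 ± 0.12) and Adamts5 (−1.35 ± 0.12) fell. Of 23 genes of metalloproteinases and their inhibitors 7 fell, and 14 with the block, 3 without DMSO 1 and 1 in the 12-library fit.

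Adhesion and cytoskeleton genes mostly fell. Of 26 integrin and adhesion genes 14 fell and 5 rose (7 and 3 in the 12-library fit), with Itga6 (−1.16 ± 0.10) and Cdh2 (−0.84 ± 0.07) lower and the focal adhesion kinase Ptk2 higher (0.73 ± 0.07). Of 33 actin and contractile genes 20 fell (9 in the 12-library fit), including Actb (3295 ± 322 to 2014 ± 256 CPM, −0.71 ± 0.11), the intermediate filament Vim (4695 ± 445 to 2759.9 ± 418 CPM, −0.77 ± 0.12) and Tagln2 (−0.99 ± 0.13). The 3 that rose (6 with the block) included the filamin gene Flnc, whose product crosslinks actin, at 427, 609 and 488 CPM in the DMSO libraries and 1279.6, 1673 and 1736 CPM in the CFZ libraries (log2 fold change 1.62 with an SE of 0.16, adjusted p = 5.02e-05). Bag3 is a known partner in the turnover of damaged filamin, and it rose as given above. Tubulins parted, with Tubb2a (1.10 ± 0.10) and Tuba4a (1.03 ± 0.08) higher and Tuba1b (877 ± 76 to 422 ± 57 CPM, −1.05 ± 0.10) and Tubb5 (1979.7 ± 166 to 1375 ± 121 CPM, −0.53 ± 0.09) lower. Of 34 genes of cilium and centriole 12 rose (5 in the 12-library fit), with Bbs4 (1.22 ± 0.14) and Cep164 (1.06 ± 0.07) among them, and the centriole kinase Plk4 fell (−1.03 ± 0.07).

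Genes of fibroblast and positional identity were lower. Of 9 fibroblast markers 6 fell and none rose (3 fell in the 12-library fit): Col1a1, Col1a2, Vim, Thy1 (−0.53 ± 0.13), S100a4 (−1.47 ± 0.18) and Pdgfrb. Col3a1, Dcn and Pdgfra were not called, and in the fit with a replicate block all 3 were lower (adjusted p = 0.00311, 9.05e-05 and 0.00798). Of 22 tested HOX genes 12 fell. Those over 20 CPM with DMSO were Hoxd8 (−1.14 ± 0.08), Hoxa7 (25.8 ± 0.492 to 8.96 ± 0.78 CPM, −1.52 ± 0.09), Hoxa5 (−1.19 ± 0.12) and Hoxa3 (24.8 ± 1.52 to 5.25 ± 1.04 CPM, −2.24 ± 0.14). Of the tested genes of the A cluster all but Hoxa10 fell, and Hoxb9, the HOX gene with the highest CPM, was not called (70.9 ± 2.32 to 67.3 ± 8.99 CPM, −0.07 ± 0.09). Of 38 mesenchymal transcription factors 18 fell and 8 rose (5 when scaled by ribosomal protein genes, 4 in the 12-library fit). Prrx1 (533 ± 64.3 to 298 ± 22.3 CPM, −0.84 ± 0.09) and its relative Prrx2 (−1.40 ± 0.11), the mesenchymal drivers Snai1 (−1.21 ± 0.27) and Snai2 (−1.20 ± 0.08), and Sox12 fell, and Sox4 (0.91 ± 0.11) and Runx1 (0.76 ± 0.13) rose.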

How the data were processed

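Polyadenylated RNA of NIH/3T3 cells was sequenced in 12 libraries (4 treatments of 8 h, 3 replicates each). The authors deposited raw counts per gene, per the file headers with GRCm39 coordinates and Ensembl gene numbers, and the submitters' processing notes name STAR 2.7.9a, Trimmomatic 0.39 and featureCounts (Subread 2.0.2). The strand setting and the annotation release are not given in the sources used here. Overlapping or antisense genes and near-identical copies are therefore uncertain. Symbols were matched for 52073 of 56980 gene numbers (91.4%).

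From the 6 libraries compared, 13865 genes passed filterByExpr (minimum count 10, minimum total 15). They were fitted with edgeR 4.0.16 (R 4.3.3; TMM scaling, quasi-likelihood test, Benjamini-Hochberg adjustment over all 13865 genes, threshold 0.05). The SE was not returned by the fit. It was worked back from the size of each log2 fold change and the F statistic of its test, so it is approximate. Per-replicate totals of 30460507 to 40134000 counts set the precision. On simulated counts for these 13865 genes the test recovered 76.1% of changes of 1.5-fold, 92.5% of 2-fold and 97.0% of 4-fold. The changes were placed in 67, 67 and 66 genes, all above a minimum mean CPM, and 13665 genes were left unchanged. Recovery for genes under that minimum, or with as many changes as in the real counts, was not tested. Replicates of a group differed by more than counting noise (chi-square per degree of freedom 13.5 to 32.3), so none was a library deposited again.

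Replicate numbers paired the samples: deviations from the group mean correlated at 0.35 to 0.48 between DMSO and CFZ libraries of the same number and at −0.30 to 0.0006 between others. The pairing comes from the replicate numbers in the labels and from this check, not from a stated shared culture.

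The 70 gene lists, and the comparison itself, were chosen with earlier results of these data known, and list counts and medians support nothing by themselves. Named genes were the 15 with the largest rise and the 15 with the largest fall. These were taken from called genes with no overlap between groups and a mean of at least 5 CPM in 1 group. Clone and pseudogene names were left out. Lack of overlap in these genes was thus a condition of choice. Also named were the 10 with the smallest p and the 10 with the most counts. In each list, the 4 with the largest change in the direction most members took were named, and 2 in the opposite one. Other genes were named after their values were seen. The promoter stretches printed were taken from called list members with large fold changes. Alternatives were other scalings, filters and thresholds, DESeq2 1.42.0, limma-voom (limma 3.58.1), a replicate block, a fit of all 12 libraries and leaving out each library. The single-gene role clauses are textbook background.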

Additional observations from a re-analysis of the deposited data

How the results depend on the processing

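No gene called in the fit of 6 libraries was called in the opposite direction under any alternative. The 3918 genes higher and 4007 lower became 2402 and 2395 when the spread was estimated from all 12 libraries, and 1176 and 1167 when tested against a 1.5-fold change. With the replicate number as a block they were 4670 and 4851, and leaving out 1 library at a time gave 3513 to 3844 and 3509 to 3908. Scaling by library size gave 3310 and 4652 and scaling by ribosomal protein genes 3042 and 4435, so 40.7% of the calls were higher with the latter against 49.4% with TMM, and the median of all genes was −0.10 with that scaling. DESeq2 called 3849 and 3764 and limma-voom 3943 and 4006. Of the genes named by the rule, the block ended the call of Mat2a (adjusted p = 0.119) and made those of Fn1 and mt-Co1, and changed no other call among them. In the fit of 12 libraries 24 of the higher and 29 of the lower genes named by the rule were not called, and the genes printed as called above that lost their call there were Bag5, Bub1, Calr, Dusp1, Klf5, Macroh2a1, Mcm2, Pomp, Psmd10, Steap3, Thy1, Tpx2, Ugdh, Bcl2l11, Hspb7, Ubqln4, Edem2, Gpi1, Rpl10a, Col6a3, Col1a1, Col1a2, Timp2, Tubb5, Xbp1 and Tfeb (adjusted p = 0.0506 to 0.479). Changes of sign were limited to genes that were not called. mt-Nd1 (0.018) turned to −0.0645 with library size scaling, −0.0377 with upper-quartile scaling and −0.0682 with ribosomal protein scaling, and Vwf (0.031), a marker of endothelium at a trace level, to −0.0515, −0.0242 and −0.0455. Leaving out 1 library at a time gave log2 fold changes of −0.0251 to 0.0724 for mt-Nd1, −0.382 to 0.482 for Vwf, −0.0836 to 0.0468 for Gapdh, −0.304 to 0.0882 for Myc and −0.00300 to 0.183 for Atf4. Genes under the filter on low counts were left out, and with no filter 28267 genes were tested, of which 4070 were higher and 4273 lower.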

Other observations

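Further families changed within themselves. Of 25 KLF, C/EBP and MYC network genes 6 rose (2 in the fit of 12 libraries) and 11 fell. The Krüppel-like factors Klf13 (61.7 ± 2.64 to 23.5 ± 1.09 CPM, −1.39 ± 0.07) and Klf10 (35.1 ± 2.88 to 16.9 ± 0.314 CPM, −1.05 ± 0.09) fell, and Klf5 (14.2 ± 1.82 to 23.3 ± 5.59 CPM, 0.72 ± 0.18) and Klf7 (74.2 ± 5.17 to 107 ± 14.3 CPM, 0.52 ± 0.10) rose. Klf4, one of the best known fibroblast regulators of this family, was at 386, 389 and 356 CPM in the DMSO libraries and 502, 379 and 348 CPM in the CFZ libraries and was not called (0.12 ± 0.12). Of 24 feedback inhibitors of growth factor signals 5 rose (20.8%) and 6 fell (25.0%), both shares below those of all genes. In the fit of 12 libraries 2 rose, with ribosomal protein scaling 3, and in the fit with a replicate block 9 rose and 10 fell. The dual-specificity phosphatases parted, with Dusp4 (16.4 ± 3.11 to 46.4 ± 6.48 CPM, 1.5 ± 0.15) and Dusp1 (103 ± 17 to 178 ± 29.2 CPM, 0.79 ± 0.15) higher and Dusp7 (60.1 ± 4.97 to 25.5 ± 3.4 CPM, −1.24 ± 0.10) lower. The sprouty gene Spry1 (6.55 ± 1.32 to 1.55 ± 0.245 CPM, −2.07 ± 0.20) and its relative Spred1 (138 ± 8.98 to 84.3 ± 2.93 CPM, −0.71 ± 0.07) fell. Among iron genes the ferrireductase Steap3 fell with the transferrin receptor (256 ± 35.7 to 147 ± 30.5 CPM, −0.80 ± 0.16), while the metallothionein Mt1 was not called (134 ± 11.4 to 148 ± 11.5 CPM, 0.15 ± 0.08) but was higher in the fit with a replicate block (adjusted p = 0.0160). The metal-sensing factor Mtf1 rose (44.5 ± 2.83 to 71.1 ± 3.5 CPM, 0.68 ± 0.07). Of 6 tested genes of the aryl hydrocarbon receptor only Cyp1b1 fell.

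Calls differed by gene structure. Of 1629 tested genes with 1 exon block 11.7% were higher and 21.1% lower, and of 3172 with 2 to 5 blocks 21.8% and 34.1%. Of 1850 with over 20 blocks 33.9% were higher and 28.1% lower. By span, 19.2% of 4543 genes under 10 kb were higher and 28.8% lower, against 34.7% and 27.9% of 3611 genes of 30 to 100 kb. Of 296 lincRNA genes 13.9% were higher and 36.5% lower, with a median log2 fold change of −0.38, against 31.0% and 30.3% of 11609 protein-coding genes. These classes also differ in expression level and thus in the power of the test, whose part in the shares was not tested.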
